A study of Homo sapiens with 11 samples.

Results

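HSF1 and 9 heat shock chaperone genes were followed in RNA sequencing of MOLM-13 cells. The 10 genes were chosen by name: HSF1, HSPA8, HSPA4, HSPH1, DNAJB1, HSP90AA1, HSPB1, BAG3, HSPD1 and HSPE1. All 10 were found among the 38557 annotated genes of the count table, and all 10 passed the filter on low counts, as did 14683 genes in all. MOLM-13, an established line from human acute myeloid leukemia, carries a KMT2A rearrangement, and every library came from this 1 line. The treatments lasted 72 h and were DMSO as the solvent control (4 libraries), 1 µM MI-503, which blocks the KMT2A partner Menin (4 libraries), and both 1 µM MI-503 and 100 nM PR-957, which blocks PSMB8 of the immunoproteasome (3 libraries, numbered 1, 2 and 4 and called the combination here). PR-957 was not given by itself in any library, and its addition is therefore seen only in cells that also had MI-503. The labels do not say whether the libraries of a group came from separate cultures, and the p-values below measure only the spread between these libraries.

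Heat shock factor 1 (HSF1) is the transcription factor that drives chaperone genes when unfolded proteins accumulate. In resting cells it is held by chaperones, and when these are taken up by damaged proteins it forms trimers that bind heat shock elements, alternating GAA and TTC units, in the promoters of its target genes. HSP70 proteins bind unfolded chains in cycles driven by ATP. J-domain proteins such as DNAJB1 start the cycle and nucleotide exchange factors such as the HSP110 proteins HSPA4 and HSPH1 and the BAG proteins end it. HSP90 acts later, on nearly folded clients such as kinases, the small protein HSPB1 holds clients without ATP, and HSPD1 and HSPE1 form the folding chamber of the mitochondrial matrix. HSPD1 and HSPE1 are thus mitochondrial chaperones, although they are often counted with the cytosolic heat shock genes. The activity of HSF1 is set mainly by trimer formation and modification of the protein, which RNA sequencing does not measure.

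Promoter letters were read first, because HSF1 acts through them. In the RefSeq promoter table (GRCh38.p14, from 250 bases before to 50 bases after each annotated start), 9 of the 10 genes had a window, and HSF1 was not analysed here. Pairs of units, spelled GAANNTTC or TTCNNGAA, read the same on both strands and were found in windows of 5 genes (HSPA8, DNAJB1, HSP90AA1, HSPB1 and HSPD1). One more alternating unit directly after such a pair, 3 in all, was found for 3 genes (HSPA8, HSP90AA1 and HSPD1). In HSPD1 the 2 matches of 3 units overlap and form 1 longer run. Pairs that share a unit were counted as separate matches. Some genes had several windows, and counted by window, 6 of the 13 windows of these genes held a pair and 3 held 3 units. Among all 35116 windows of the table, 13.5% held a pair and 0.490% held 3 units. The windows of HSPA4, HSPH1, BAG3 and HSPE1 held no such letters, which says only that they are not in these windows. The stretches around the matches are shown 5′ to 3′ on the strand of the gene, with the units in capitals, so that the HSF1-type letters can be set beside the values of each gene.
HSPA8: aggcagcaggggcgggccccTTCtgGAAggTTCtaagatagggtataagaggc
DNAJB1: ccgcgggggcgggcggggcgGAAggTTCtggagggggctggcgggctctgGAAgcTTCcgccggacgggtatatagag
HSP90AA1: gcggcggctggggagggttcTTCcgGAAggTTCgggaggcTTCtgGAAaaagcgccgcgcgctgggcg
HSPB1: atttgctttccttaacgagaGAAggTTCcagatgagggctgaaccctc
HSPD1: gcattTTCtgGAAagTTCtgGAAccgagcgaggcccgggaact

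These stretches lie at chr11:123062159-123062211 (HSPA8, minus strand), chr19:14518417-14518494 (DNAJB1, minus strand), chr14:102087085-102087152 (HSP90AA1, minus strand), chr7:76302471-76302518 (HSPB1, plus strand) and chr2:197500048-197500090 (HSPD1, minus strand). None of them overlaps an annotated exon of its own gene. HSP90AA1, DNAJB1 and HSPD1 have more than 1 annotated start, and the stretches shown belong to a start inside the gene span. The windows at the outermost starts of HSP90AA1 and HSPD1 held no pair. The outermost DNAJB1 window (chr19:14529222-14529521) held none either, but the gene span runs on to 14530597, beyond this window. The HSPA8 stretch shown also lies inside its gene span, which ends at 123062366. Of the stretch around its further matches, 20 bases lie in its own exons. HSPA8 had a further 2 matches upstream of those shown, and DNAJB1 had 1 more, not shown, in the window of another start inside its span (chr19:14517888-14518187).

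The libraries held 18.9 to 41.2 M counted fragments, and the deepest held 2.18 times the fragments of the shallowest. Combination replicate 1 stood apart. Chi-square over genes, divided by its degrees of freedom, was 19.4 and 33.3 between it and combination replicates 2 and 4, compared with 4.59 between replicates 2 and 4 and with at most 5.97 between libraries of the other groups. Where a count of called genes below changes without this library, both counts are given. All 8 myeloid markers (PTPRC, CD33, SPI1, FLT3, CSF1R, LYZ, ITGAM and MPO) were detected in every library. Their summed level was 901 to 987 CPM (counts relative to the library total) in DMSO, 1370 to 1393 in MI-503 and 1555 to 3605 in the combination, with the lowest value in combination replicate 1. LYZ, with means of 92.4, 375 and 1710 CPM, carried most of this difference, and the other 7 markers summed to 810 to 883, 992 to 1027 and 939 to 1005 CPM. FLT3 went the other way, with means of 315, 230 and 201 CPM. Among 8 markers of other cell types, HBB, CD3E and EPCAM had means of at most 0.0224 CPM in each group, and PECAM1, which myeloid cells also carry, made up most of the sum of 48.0 to 58.5, 109 to 117 and 133 to 192 CPM. The part of these markers in the values below was not tested. In bulk RNA, fewer cells of a type and less RNA per cell cannot be told apart.

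Levels were compared between genes only per kilobase of annotated exon. In DMSO the order ran from HSPA8, the constitutive cytosolic HSP70, at 773 ± 47.6 CPM per kb (SD, n = 4) through HSPB1 at 587 ± 25.1, HSP90AA1 at 386 ± 14.3, HSPD1 at 358 ± 12.8 and HSPE1 at 101 ± 4.18. Below these lay HSPH1 at 60.4 ± 4.16, HSPA4 at 55.2 ± 2.00, DNAJB1 at 37.3 ± 2.45 and BAG3 at 12.3 ± 0.609 CPM per kb. Neighbors in this order did not overlap between libraries, except HSPH1 and HSPA4. The exon lengths were not corrected for stretches whose fragments were left out of the counts. Of the windows in the exons of HSPD1, 20.1% recur elsewhere in hg38, compared with 7.96% for HSPB1, 5.79% for HSPA8 and 3.01% for HSP90AA1. Of the exon bases of HSPE1, 40.6% also belong to another gene, as do 7.79% of those of HSP90AA1. The levels of these genes, most of all HSPD1 and HSPE1, may therefore be too low. The order of HSP90AA1 and HSPD1, and that of HSPA8 and HSPB1, was not tested with corrected lengths. HSF1 was the lowest at 0.890 ± 0.211 CPM per kb, but its exons are annotated on 2 contigs, and whether fragments had been left out for that reason was not tested, since the hg38 sequence used here does not hold the second contig. On the exon length of its main contig alone the same counts give 1.73 ± 0.410 CPM per kb. With MI-503, HSPA8 (465 ± 16.1 CPM per kb) and HSPB1 (461 ± 17.4) overlapped, and HSPA4 (39.8 ± 1.17) lay above HSPH1 (34.4 ± 2.30) without overlap. In the combination HSPH1 was again the higher of the pair at 52.7 ± 8.80 CPM per kb against 42.6 ± 1.30 for HSPA4, with overlap (n = 3).

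Taken as a sum, the 10 genes had 5439 ± 214 CPM in the 4 DMSO libraries, 3441 ± 74.3 CPM in the 4 MI-503 libraries and 4014 ± 317 CPM in the 3 combination libraries (SD). The MI-503 mean was 63.3% and the combination mean 73.8% of the DMSO mean. The 3 groups did not overlap in this sum, which ran from 5140 to 5642, from 3393 to 3551 and from 3662 to 4273 CPM. HSPA8, HSP90AA1 and HSPD1 carry most of it, so the single genes are given next.

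**Figure D1:**
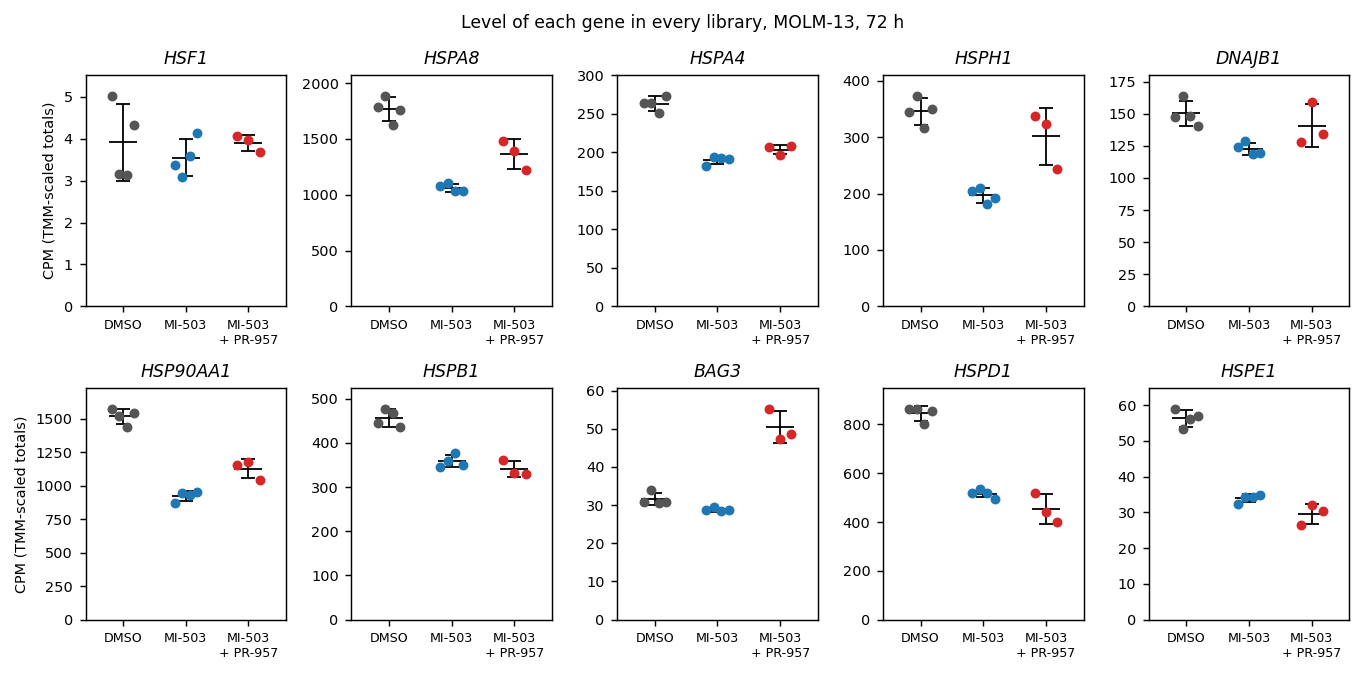
CPM (counts relative to TMM-scaled library totals) of each of the 10 genes on the vertical axis, for DMSO, MI-503 and MI-503 + PR-957 libraries on the horizontal axis. Points are libraries, horizontal bars the group means and whiskers 1 SD; 8 of the genes are lower in MI-503 by the test, and BAG3 alone has all 3 combination libraries above every other library.

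HSF1 itself showed no difference that passed the test. Its RNA was counted at 5.03, 3.17, 3.13 and 4.32 CPM in DMSO replicates 1 to 4, at 3.38, 3.08, 3.59 and 4.13 CPM in MI-503 replicates 1 to 4, and at 4.06, 3.96 and 3.68 CPM in combination replicates 1, 2 and 4. All 3 groups overlapped, and the DMSO libraries alone covered the whole range but for 1 MI-503 library. The log2 fold changes were −0.16 (SE 0.15, adjusted p = 0.397) for MI-503 against DMSO, −0.02 (SE 0.16, adjusted p = 0.936) for the combination against DMSO and 0.15 (SE 0.16, adjusted p = 0.484) for the combination against MI-503. These values rest on 66 to 172 fragments per library, the fewest of the 10 genes.

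With MI-503, 8 of the 10 genes fell, and the other 2 (HSF1 and BAG3) did not pass the test. The background was 29.4% of all tested genes called lower and 21.9% called higher. None of the 10 was called higher by edgeR, nor was any higher at an unadjusted p under 0.05 or called higher by DESeq2 or limma-voom (0 in each). The median log2 fold change was −0.59 for the 10 genes and −0.03 for all tested genes. In 9 of the 10 genes the 4 MI-503 libraries lay below all 4 DMSO libraries, the exception being HSF1, whereas 50.3% of all tested genes had no overlap in one direction or the other. The same 8 genes stayed on the same side of the threshold in each of the 20 alternative settings run, including each with 1 library left out.

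Adding PR-957 to MI-503 split the 10 genes. Compared with MI-503, 5 genes rose (HSPA8, HSPH1, DNAJB1, HSP90AA1 and BAG3) and 2 fell (HSPD1 and HSPE1), beside a background of 23.5% of all tested genes called higher and 23.7% called lower. The median log2 fold change was 0.17 for the 10 genes and 0.004 for all tested genes. All 5 that rose are cytosolic, and the 2 that fell, a count near the background share, are the mitochondrial pair. Groups did not overlap for 5 genes that were higher in the combination (HSPA8, HSPA4, HSPH1, HSP90AA1 and BAG3) and for HSPE1, which was lower, compared with 47.6% of all tested genes in either direction. Without combination replicate 1 the count was 5 higher and 3 lower, with cytosolic HSPB1 added to those lower. The further lists described below did not divide by compartment throughout. Of 10 other cytosolic J-domain genes 6 rose and 0 fell in this comparison. Of 13 TRiC and prefoldin genes, also cytosolic, 2 rose and 6 fell (2 and 8 without combination replicate 1). Of 13 other mitochondrial genes 3 rose and 5 fell (2 and 6 without that library).

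Against DMSO, the combination left 6 genes lower (HSPA8, HSPA4, HSP90AA1, HSPB1, HSPD1 and HSPE1) and 1 higher (BAG3), and the background was 32.8% called lower and 31.6% called higher. The median was −0.37 for the 10 genes and 0.01 for all tested genes. HSPH1, DNAJB1 and HSF1 did not pass the test. For the 7 genes called, groups did not overlap, as was the case for 60.5% of all tested genes in either direction. Without combination replicate 1 the counts were the same, 6 lower and 1 higher. These 2 comparisons share the combination libraries, and each of them shares a group with MI-503 against DMSO, so the 3 sets of values are given side by side and not as independent results.

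**Figure D2:**
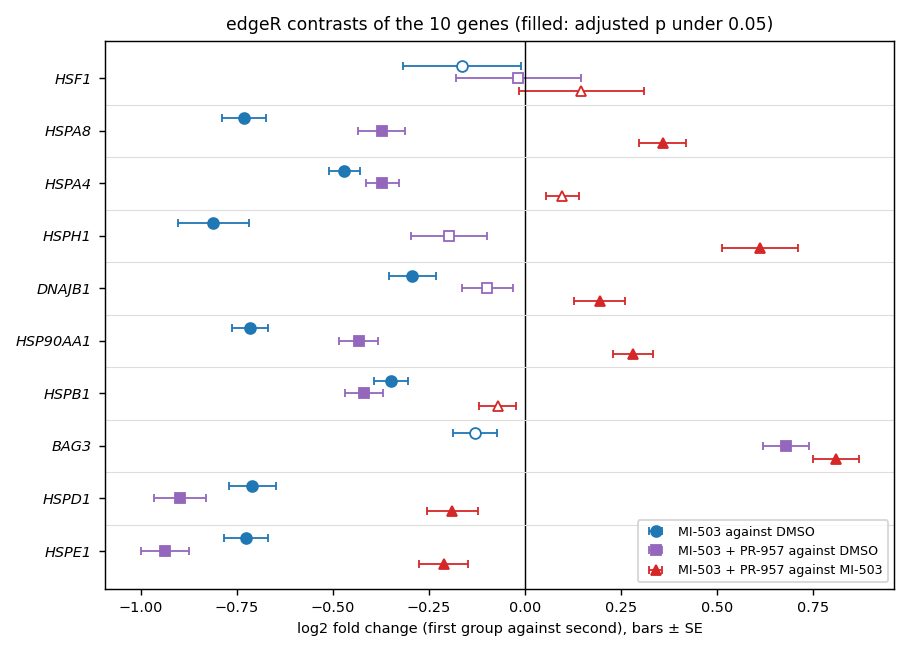
Fitted log2 fold change (horizontal axis, whiskers ± SE) of each of the 10 genes in 3 comparisons from 1 edgeR fit of 11 libraries, with filled symbols for an adjusted p under 0.05. Filled circles for MI-503 against DMSO are all left of 0, while filled triangles for the combination against MI-503 lie right of 0 for 5 genes and left of 0 for HSPD1 and HSPE1.

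HSPA8 (chr11:123057489-123062366, minus strand), whose promoter letters include 3 units, had the highest level of the 10. Its level was 1788, 1888, 1625 and 1759 CPM in DMSO replicates 1 to 4 and 1078, 1107, 1035 and 1030 CPM in MI-503 replicates 1 to 4. The combination libraries 1, 2 and 4 had 1479, 1393 and 1217 CPM. They sat between the other groups and touched neither. HSPA8 fell with MI-503 by 0.73 on the log2 scale (SE 0.06, adjusted p = 6.59e-09), to 60.2% of the DMSO mean. It rose by 0.36 (SE 0.06, adjusted p = 9.20e-05) when PR-957 was added, to 77.2% of the DMSO mean, and the combination remained lower than DMSO by a log2 fold change of −0.37 (SE 0.06, adjusted p = 3.19e-05). Of the 100-base windows in its exons, 5.79% recur elsewhere in hg38, so a part of its fragments may have been left out.

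HSP90AA1 (chr14:102080742-102139749, minus strand), the stress-inducible cytosolic HSP90, had the same order of groups. It was counted at 1575, 1521, 1443 and 1545 CPM in DMSO, at 874, 949, 934 and 951 CPM with MI-503 and at 1154, 1181 and 1046 CPM in the combination, with no overlap between any of the 3 groups. MI-503 lowered it by a log2 fold change of −0.71 (SE 0.05, adjusted p = 7.14e-10), the combination exceeded MI-503 by 0.28 (SE 0.05, adjusted p = 0.000158), and the combination was below DMSO by −0.43 (SE 0.05, adjusted p = 5.11e-07). Its constitutive counterpart HSP90AB1, which was looked up after its values were seen, fell less with MI-503 (log2 fold change −0.41, SE 0.07, adjusted p = 0.000213) and did not pass the test for the combination against MI-503 (0.17, SE 0.08, adjusted p = 0.0961), although it passed with no filter on low counts (adjusted p = 0.00331) and without combination replicate 4 (0.21, adjusted p = 0.0274). Counts of HSP90AA1 were 45.0% ± 1.10 of those of HSP90AB1 in DMSO, 36.4% ± 0.657 with MI-503 and 40.0% ± 5.93 in the combination. In the combination, replicate 1 lay below the MI-503 range of 35.8% to 37.2% at 33.6%, while replicates 2 and 4 lay above it at 45.3% and 41.2%.

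The HSP110 proteins HSPH1 and HSPA4 release ADP from HSP70. HSPH1 (chr13:31134973-31162388, minus strand) was counted at 345, 374, 316 and 351 CPM in DMSO, at 205, 211, 182 and 192 CPM with MI-503 and at 338, 324 and 244 CPM in the combination. The first 2 of these combination libraries lay within the DMSO range and combination replicate 4 lay between the other groups. HSPH1 showed the largest fall of the 10 genes with MI-503, a log2 fold change of −0.81 (SE 0.09, adjusted p = 1.46e-05), and rose by 0.61 (SE 0.10, adjusted p = 0.000293) with PR-957 added. Against DMSO the combination gave −0.20 (SE 0.10, adjusted p = 0.102), and this call depended on the test, since limma-voom gave an adjusted p of 0.0487. HSPA4 (chr5:133052013-133106449, plus strand) had 251 to 274 CPM in DMSO, 182 to 194 with MI-503 and 196 to 208 in the combination. It fell with MI-503 (−0.47, SE 0.04, adjusted p = 1.88e-08), and the combination against MI-503 gave 0.10 (SE 0.04, adjusted p = 0.0688), which passed the threshold under 2 of the 20 alternative settings.

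Counts of HSPH1 relative to HSPA4 therefore shifted within libraries. HSPH1 had 131% ± 6.84 of the counts of HSPA4 in DMSO (126% to 141%), 104% ± 8.49 with MI-503 (94.0% to 113%) and 149% ± 26.9 in the combination (117% to 165%). The MI-503 libraries overlapped neither of the other groups in this ratio, whereas DMSO and the combination overlapped.

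DNAJB1 (chr19:14514764-14530597, minus strand), the J-domain protein that delivers clients to HSP70 and is itself a classic HSF1 target, changed less. Its DMSO libraries had 148, 164, 148 and 141 CPM, its MI-503 libraries 124, 129, 118 and 119 CPM, and its combination libraries 128, 159 and 135 CPM. DNAJB1 fell with MI-503 by a log2 fold change of −0.29 (SE 0.06, adjusted p = 0.000694). The rise with PR-957 added was 0.20 (SE 0.07, adjusted p = 0.0217), but combination replicate 1 lay within the MI-503 range, and the call rested on single libraries. Leaving out combination replicate 2 gave 0.06 (adjusted p = 0.437), leaving out combination replicate 4 gave 0.19 (adjusted p = 0.0639), and leaving out MI-503 replicate 3 or 4 gave 0.18 with adjusted p of 0.0590 and 0.0548. The combination against DMSO gave −0.10 (SE 0.07, adjusted p = 0.211), and −0.19 (adjusted p = 0.0108) without combination replicate 2.

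HSPB1 (chr7:76302673-76304292, plus strand), the small heat shock protein also called HSP27, was lower in both treated groups. It was counted at 445, 477, 468 and 435 CPM in DMSO, 346, 360, 377 and 351 CPM with MI-503, and 362, 332 and 330 CPM in the combination. MI-503 lowered it by a log2 fold change of −0.35 (SE 0.04, adjusted p = 2.97e-06) and the combination was lower than DMSO by −0.42 (SE 0.05, adjusted p = 3.62e-07). Between the combination and MI-503 the log2 fold change was −0.07 (SE 0.05, adjusted p = 0.243), and −0.14 (adjusted p = 0.0141) without combination replicate 1. No rise with PR-957 passed the test for this gene, whose window carries a pair of units.

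BAG3 (chr10:119651370-119677819, plus strand), a co-chaperone that links HSP70 to small heat shock proteins and to autophagy, was the 1 gene of the 10 whose level in the combination exceeded DMSO by the test. Its level was 30.8, 33.9, 30.6 and 30.9 CPM in DMSO, 28.7, 29.6, 28.4 and 28.6 CPM with MI-503 and 55.2, 47.4 and 48.6 CPM in the combination. All 3 combination libraries lay above the other 8. The log2 fold change was 0.81 (SE 0.06, adjusted p = 3.40e-09) against MI-503 and 0.68 (SE 0.06, adjusted p = 8.19e-09) against DMSO. MI-503 against DMSO gave −0.13 (SE 0.06, adjusted p = 0.0707), although the 4 MI-503 libraries lay just below the 4 DMSO libraries. Counts of BAG3 were 1.79% ± 0.0706 of those of HSPA8 in DMSO, 2.72% ± 0.0550 with MI-503 and 3.71% ± 0.296 in the combination, with no overlap between groups. The window searched at the BAG3 start held no pair of units.

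The mitochondrial pair followed another course. HSPD1 (chr2:197486584-197500274, minus strand) and HSPE1 (chr2:197500379-197503449, plus strand) lie head to head, and both fell with MI-503 and lay lower still in the combination. A window of HSPD1 holds 2 overlapping matches of 3 units, whereas the window at the HSPE1 start held no pair. HSPD1 was counted at 862, 863, 800 and 855 CPM in DMSO, 519, 535, 517 and 496 CPM with MI-503, and 520, 440 and 399 CPM in the combination. HSPE1 had 58.9, 53.3, 56.3 and 56.8 CPM in DMSO, 32.4, 34.4, 34.4 and 35.0 CPM with MI-503, and 26.5, 32.0 and 30.4 CPM in the combination. In HSPD1, combination replicate 1 lay within the MI-503 range, whereas in HSPE1 the same library was the lowest of all.

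With MI-503 the log2 fold change was −0.71 for HSPD1 (SE 0.06, adjusted p = 4.74e-08) and −0.73 for HSPE1 (SE 0.06, adjusted p = 6.71e-09). The combination against DMSO gave −0.90 (SE 0.07, adjusted p = 2.44e-09) and −0.94 (SE 0.06, adjusted p = 2.14e-10), so that HSPD1 stood at 53.6% and HSPE1 at 52.6% of the DMSO mean. Against MI-503 the combination gave −0.19 for HSPD1 (SE 0.07, adjusted p = 0.0266) and −0.21 for HSPE1 (SE 0.06, adjusted p = 0.0103). The HSPD1 call was lost without MI-503 replicate 1 (adjusted p = 0.0528), 2 (0.0702) or 3 (0.0529) and when only these 2 groups were fitted (0.0603), and its log2 fold change was −0.33 (adjusted p = 2.15e-06) without combination replicate 1. The HSPE1 call held in all 20 alternative settings. Counts of HSPE1 were 6.67% ± 0.368 of those of HSPD1 in DMSO, 6.60% ± 0.344 with MI-503 and 6.66% ± 1.37 in the combination, where replicate 1 had 5.09%. Both genes are undercounted by different rules, since 20.1% of the 100-base exon windows of HSPD1 recur elsewhere in hg38 and 40.6% of the exon bases of HSPE1 also belong to the read-through gene HSPE1-MOB4.

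**Figure D3:**
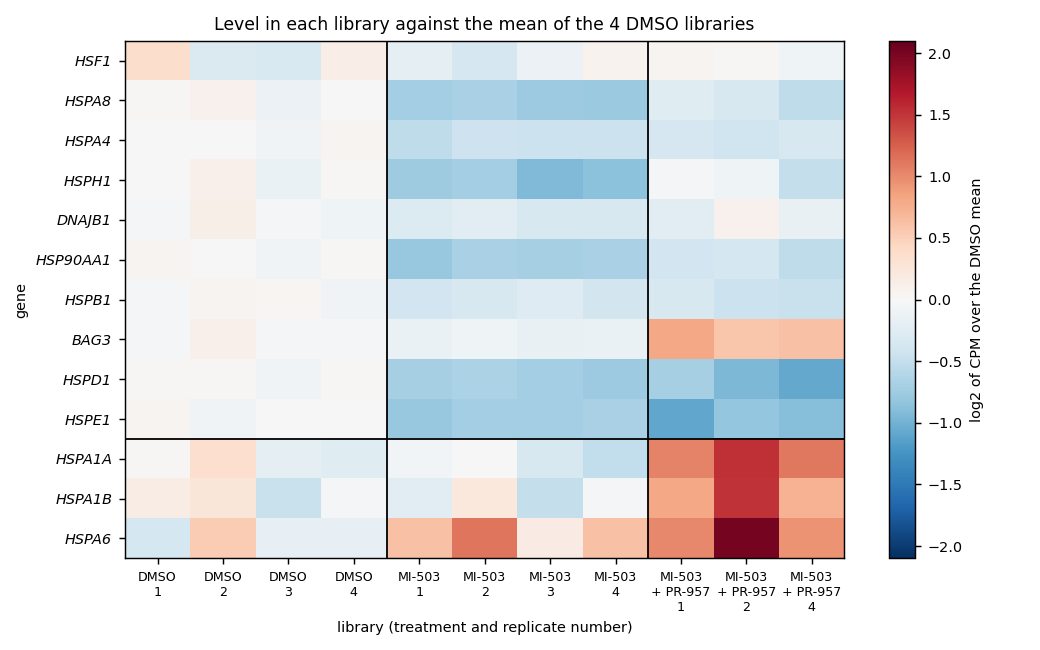
log2 of the CPM of each gene (rows) in each library (columns) over the mean of the 4 DMSO libraries, red for higher and blue for lower, with HSPA1A, HSPA1B and HSPA6 below the line. The MI-503 columns are blue for the chaperones from HSPA8 to HSPB1 and for HSPD1 and HSPE1, and the combination columns are paler for HSPA8, HSPH1 and HSP90AA1 and red for BAG3 and the 3 added genes.

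The stress-inducible HSP70 genes, which are not among the 10, were counted at low levels in DMSO and at higher levels in the combination. HSPA1A was counted at 3.58, 4.50, 3.08 and 2.94 CPM in DMSO, 3.38, 3.52, 2.81 and 2.46 CPM with MI-503 and 7.27, 10.2 and 7.59 CPM in the combination. Its log2 fold change against MI-503 was 1.43 (SE 0.16, adjusted p = 7.38e-07) and MI-503 against DMSO gave −0.21 (SE 0.17, adjusted p = 0.314). HSPA1B rose by 1.12 (SE 0.21, adjusted p = 0.000226) against MI-503, from 2.11 ± 0.449 to 4.78 ± 1.52 CPM. The 3 combination libraries lay above the other 8 for both genes. All of the 100-base windows of HSPA1A and HSPA1B recur elsewhere, on the other gene of the pair or on other contigs of the region, so what was counted is an unknown part of their fragments and the pair cannot be told apart with certainty. Their summed counts were 0.327% ± 0.0431 of the counts of HSPA8 in DMSO, 0.483% ± 0.0576 with MI-503 and 0.967% ± 0.222 in the combination. HSPA6, another stress-inducible HSP70, was looked up after its values were seen. It had 13 to 22 fragments per library in DMSO, 19 to 52 with MI-503 and 36 to 59 in the combination. It was higher in the combination than in DMSO (1.35, SE 0.31, adjusted p = 0.000817), and its difference from MI-503 did not pass the test (0.64, SE 0.28, adjusted p = 0.0674; called under 5 of 19 alternative settings). MI-503 against DMSO did not pass either (0.71, SE 0.31, adjusted p = 0.0637; called under 10 of 19).

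**Figure D4:**
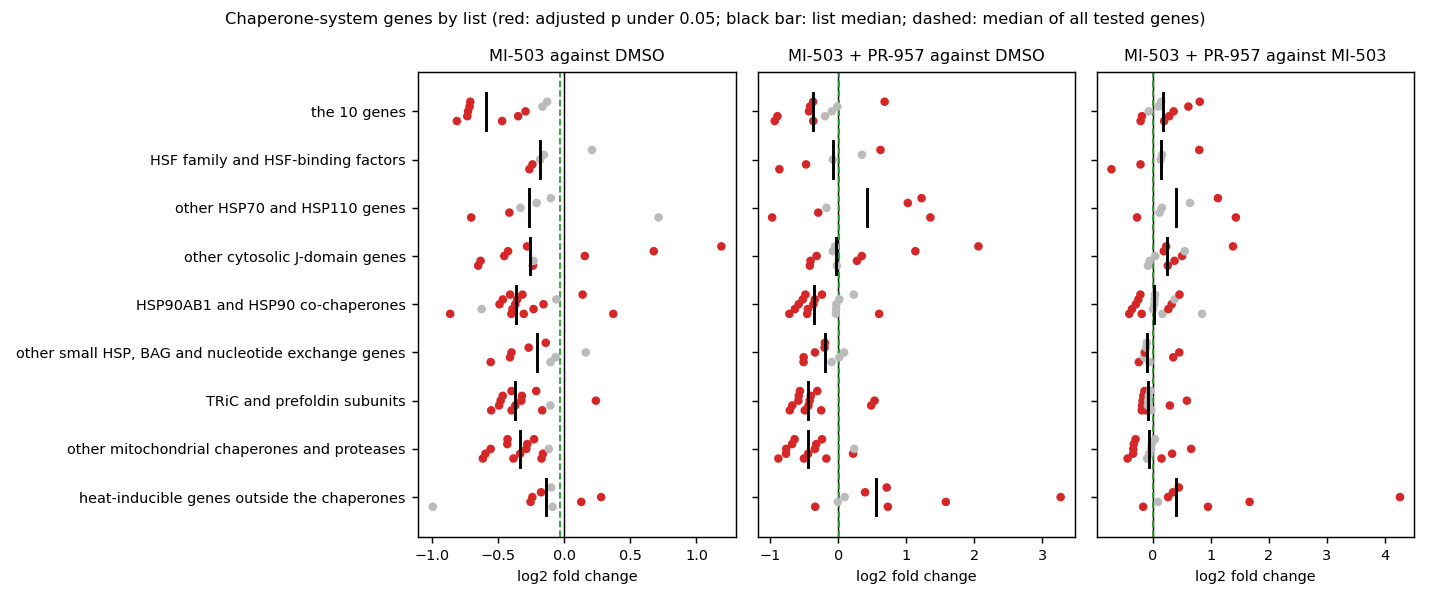
Fitted log2 fold changes (horizontal axis) of single tested genes (points, red for an adjusted p under 0.05) in the 10 genes and 8 further lists of the chaperone system (rows) in 3 comparisons (panels). Black bars are list medians and the dashed line is the median of all tested genes. The medians of the other HSP70 and HSP110 list and of the heat-inducible list lie right of 0 in both comparisons with PR-957. All other list medians, including those of the TRiC and mitochondrial lists, lie left of 0 in both comparisons against DMSO.

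The rest of the chaperone system was read from 8 lists with 90 genes, of which 79 were tested. The counts below stand beside a background of 29.4% of all tested genes called lower and 21.9% called higher with MI-503, 23.7% lower and 23.5% higher for the combination against MI-503, and 32.8% lower and 31.6% higher for the combination against DMSO. Among the heat shock factors and the factors that bind them, 5 genes were tested. HSF4, a factor known from the lens, rose with PR-957 added by 0.80 (SE 0.09, adjusted p = 1.40e-06). HSBP1, which binds HSF1 trimers and restrains them, fell with MI-503 (−0.26, SE 0.06, adjusted p = 0.000553) and lay lower again in the combination than in MI-503 (−0.21, SE 0.06, adjusted p = 0.00692). HSF2 fell with MI-503 (−0.24, SE 0.06, adjusted p = 0.00263) and gave 0.16 (SE 0.06, adjusted p = 0.0530) for the combination against MI-503.

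Besides HSPA1A, HSPA1B and HSPA6, the other HSP70 and HSP110 genes tested were HSPA4L, HSPA14 and HSPA12B. HSPA4L, a further HSP110 gene, fell with MI-503 (−0.70, SE 0.06, adjusted p = 1.36e-08) and fell further in the combination (−0.27 against MI-503, SE 0.07, adjusted p = 0.00205). HSPA14, a partner of HSP70 at the ribosome, fell with MI-503 (−0.41, SE 0.05, adjusted p = 6.37e-07). HSPA1L, HSPA2 and HSPA12A did not pass the filter on low counts, and the exons of HSPA1L are annotated on 5 contigs. Over the 6 tested genes the median log2 fold change was −0.27 for MI-503 against DMSO and 0.40 for the combination against MI-503.

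Of 10 other cytosolic J-domain genes, 6 fell and 3 rose with MI-503, and 6 rose with PR-957 added. The 3 that rose with MI-503 stand beside a background of 21.9%. DNAJB2, which hands ubiquitinated clients to the proteasome, rose in both steps, from 6.61 ± 0.405 CPM in DMSO to 10.6 ± 0.344 with MI-503 and 27.9 ± 6.35 in the combination (log2 fold changes 0.68, SE 0.12, adjusted p = 0.000184 and 1.38, SE 0.11, adjusted p = 3.86e-08). DNAJA1, an abundant partner of HSPA8, moved in the same directions as HSPA8, with −0.65 (SE 0.05, adjusted p = 1.32e-08) for MI-503 and 0.23 (SE 0.06, adjusted p = 0.00294) for the addition of PR-957, a call lost without combination replicate 2 (0.12, adjusted p = 0.101). DNAJC2, the ribosome-bound partner of HSPA14, gave −0.42 (SE 0.05, adjusted p = 1.88e-06) and 0.37 (SE 0.06, adjusted p = 2.13e-05) in the same comparisons. DNAJB6, which suppresses aggregation, fell with MI-503 (−0.45, SE 0.06, adjusted p = 1.69e-06) and gave 0.04 (SE 0.06, adjusted p = 0.593) with PR-957 added.

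HSP90AB1 and the HSP90 co-chaperones were mostly lower with MI-503, where 12 of 16 fell and 2 rose. Their median was −0.36 in that comparison and 0.03 for the combination against MI-503, in which 3 rose and 6 fell (4 and 6 without combination replicate 1), beside a background of 23.5% and 23.7%. STIP1, the bridge between HSP70 and HSP90, fell by 0.49 on the log2 scale with MI-503 (SE 0.04, adjusted p = 3.38e-09) and gave 0.04 (SE 0.04, adjusted p = 0.446) with PR-957 added. PTGES3, the p23 co-chaperone, had values of −0.40 (SE 0.04, adjusted p = 9.40e-08) and 0.03 (SE 0.04, adjusted p = 0.582). FKBP4, an immunophilin of steroid receptor complexes, CACYBP and NUDC fell in both steps, FKBP4 with log2 fold changes of −0.32 (SE 0.06, adjusted p = 0.000130) and −0.41 (SE 0.06, adjusted p = 2.99e-05). UNC45A, a myosin chaperone, rose with PR-957 added (0.46, SE 0.05, adjusted p = 7.68e-07).

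Among 8 tested genes for small heat shock proteins, BAG proteins and other nucleotide exchange factors, 5 fell with MI-503 (4 when combination replicate 1 was left out of the fit), and with PR-957 added 2 rose and 2 fell, which is near the background shares. BAG2, an inhibitor of the ubiquitin ligase CHIP, fell by 0.56 on the log2 scale with MI-503 (SE 0.05, adjusted p = 7.28e-08) and rose by 0.46 (SE 0.06, adjusted p = 2.43e-06) with PR-957 added. ST13, which stabilizes the ADP state of HSP70, gave −0.27 (SE 0.04, adjusted p = 1.57e-05) and 0.35 (SE 0.04, adjusted p = 1.98e-06). The exchange factor HSPBP1 and BAG6, which guards proteins bound for membranes, fell with MI-503 (−0.41 and −0.40, SE 0.05 each, adjusted p = 2.17e-06 and 3.27e-06) and did not pass the test with PR-957 added. CRYAB, HSPB2, HSPB3, HSPB7, HSPB8 and HSPB9 did not pass the filter.

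The cytosolic chaperonin TRiC, which folds actin and tubulin, and its partner prefoldin were mostly lower in both treated groups. Of 13 tested genes, 11 fell with MI-503, and in the combination 11 were lower than in DMSO. The list medians were −0.37 and −0.44. CCT2 and CCT7 gave −0.55 (SE 0.04, adjusted p = 2.72e-09) and −0.49 (SE 0.04, adjusted p = 4.04e-09) with MI-503, and −0.16 (SE 0.04, adjusted p = 0.00466) and −0.19 (SE 0.04, adjusted p = 0.000854) with PR-957 added. The exceptions were the prefoldin subunits PFDN4 and PFDN5, which rose with PR-957 added by 0.59 (SE 0.08, adjusted p = 4.63e-06) and 0.29 (SE 0.06, adjusted p = 0.000322). PFDN6, whose exons are annotated on 5 contigs, did not pass the filter.

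Of 13 other mitochondrial chaperones and proteases, 12 fell with MI-503, and in the combination 11 were lower and 1 was higher than in DMSO (11 and 2 without combination replicate 1). The medians were −0.33 and −0.45. The matrix protease LONP1 fell with MI-503 (−0.61, SE 0.04, adjusted p = 1.35e-09) and gave −0.03 (SE 0.05, adjusted p = 0.618) with PR-957 added. TRAP1, the mitochondrial HSP90, fell in both steps (−0.43, SE 0.04, adjusted p = 2.48e-08 and −0.34, SE 0.04, adjusted p = 1.79e-06). HSPA9, the mitochondrial HSP70, fell with MI-503 (−0.59, SE 0.04, adjusted p = 2.72e-09) and was higher in the combination than in MI-503 by 0.15 (SE 0.05, adjusted p = 0.0135), a call that was lost when combination replicate 1 (0.10, adjusted p = 0.0942) or replicate 4 (0.09, adjusted p = 0.136) was left out. SPG7, a protease of the inner membrane, rose with PR-957 added (0.33, SE 0.05, adjusted p = 4.71e-05). DNAJA3, whose exons are annotated on 2 contigs, did not pass the filter.

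Of 8 heat-inducible genes outside the chaperones, 6 rose and 1 fell with PR-957 added, and 5 were higher and 1 lower in the combination than in DMSO. UBB, a polyubiquitin gene, fell with MI-503 (log2 fold change −0.25, SE 0.05, adjusted p = 0.000381) and rose by 0.35 (SE 0.05, adjusted p = 4.24e-05) with PR-957 added. CLU, which encodes a secreted chaperone, had 3 to 7 fragments per library in DMSO, 1 to 4 with MI-503 and 36 to 107 in the combination, so its fold change of 19.2 against MI-503 (adjusted p = 3.85e-09) starts from very few fragments. MRPL18, a mitochondrial ribosomal protein, fell in both steps (−0.17, SE 0.04, adjusted p = 0.00134 and −0.17, SE 0.04, adjusted p = 0.00405). The median of the list was −0.14 for MI-503 against DMSO and 0.40 for the combination against MI-503.

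The genes with profiles nearest to those of HSPE1, HSPD1 and HSPH1, the 3 members with the widest range between group means, were sought among all genes that averaged 5 CPM or more. Nearness was the root mean square difference of log2 CPM centered on its mean over the 11 libraries, a description in which the treatment groups set most of the likeness. Nearest to HSPE1 were CPT2 (0.0517), ACTR3B (0.0534) and GEMIN5 (0.0593). Nearest to HSPD1 were PSPH (0.0589), WNT10B (0.0605) and MRPS27 (0.0831), while its neighbor on the chromosome, HSPE1, lay at 0.148. Nearest to HSPH1 was HSPA8 (0.114), another of the 10 genes, followed by PPP1R26 (0.158) and BAG2 (0.160).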

How the data were processed

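RNA of MOLM-13 cells in 3 groups (4, 4 and 3 libraries, grouped by the labels) had been sequenced as read pairs. The deposited values are counts without normalization, 1 for each gene and library, of fragments; the authors made them after Trimmomatic 0.39 and STAR 2.7.10a (versions from the submitters' processing notes) with featureCounts 2.0.1 on RefSeq exons of hg38, without regard to strand. Per the file headers, fragments that mapped to several places or overlapped several genes were left out, and a filter had been applied to the alignments, by a rule not given in the sources used here. This lowers counts of genes with near-identical copies or shared exons. The joined table differed from the single tables in 0 values. The deposited comparison tables of the authors hold log2 fold changes, p-values and adjusted p-values from DESeq2, and were not used.

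Counts were tested with edgeR 4.0.16 in R 4.3.3 (quasi-likelihood test, two-sided, TMM factors of 0.956 to 1.056, filterByExpr with a minimum count of 10, 1 model of 11 libraries with 8 residual degrees of freedom, Benjamini-Hochberg adjustment over 14683 genes). A gene was called, and is said to have risen or fallen, at an adjusted p under 0.05, and every adjusted p in the text is of this test unless another is named. SE is an approximate standard error, the absolute log2 fold change divided by the square root of the F statistic of the test. CPM refer to TMM-scaled totals, except those of the cell type markers and of the cutoff for nearest profiles, which refer to unscaled library totals. Means are given ± SD, and levels per kb use the exon length in the count files. Ratios of counts are per library. The script was tested on simulated data. The biological coefficient of variation was 6.14%. Depth of 18.9 to 41.2 M fragments limits genes at few counts, such as HSF1.

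Whether replicate numbers pair libraries across groups was not settled, and the main test has no replicate block. Between the combination and MI-503, deviations of same-numbered libraries correlated at 0.141, 0.150 and 0.212 over 10041 genes. The correlations ran from −0.253 to 0.285 between MI-503 and DMSO and from −0.0611 to 0.111 between the combination and DMSO. Libraries with different numbers were not compared in this way, so these values have no reference. Alternatives were RLE and upper-quartile factors, no filter and a stricter one (minimum count 50), DESeq2 1.42.0, limma-voom (limma 3.58.1), only the groups compared, a replicate block, and each library left out.

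The members, lists and tests were chosen with earlier results of these data known. Named were the 10 genes, in each further list the 2 tested genes with the smallest p in each comparison, list genes that did not pass the filter, and the 3 nearest profiles of 3 members. A gene that this rule names is not reported here. HSPA6 and HSP90AB1 were added after their values were seen. Coordinates are hg38 gene spans of the count files. Exon windows of 100 bases were matched to hg38. Python 3.11.15 with numpy, pandas and matplotlib was used.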

Additional observations from a re-analysis of the deposited data

Results flagged for a closer look

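In groups of 4 libraries, a library whose gap to its nearest neighbor took up most of the range of the group was marked (Dixon's criterion). Of 20 groups examined (10 genes in DMSO and in MI-503), 2 were marked, and chance marks about 1 in 20. BAG3 had 33.9 CPM in DMSO replicate 2, with the other 3 DMSO libraries between 30.6 and 30.9 CPM. HSPD1 had 799.9 CPM in DMSO replicate 3, below the other 3 DMSO libraries at 855 to 863 CPM. Neither library reached the range of the MI-503 group, and no comparison of these 2 genes with DMSO lost or gained a call when the library was left out.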

How the results depend on the processing

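Over the 10 genes, the 20 alternative settings gave 200 values in each comparison. For MI-503 against DMSO, 200 of 200 kept their direction and side of the threshold where the gene was called. For the combination against DMSO 196 did, with HSPH1 or DNAJB1 newly called in 4. For the combination against MI-503 189 did, with DNAJB1 or HSPD1 no longer called in 8 and HSPA4 or HSPB1 newly called in 3. None reversed a called direction. The number of the 10 genes called lower in the combination against MI-503 was 2, and 1 when only the libraries of these 2 groups were fitted, where fewer libraries set the spread. Leaving out each library in turn gave 1 to 3 there, 4 to 5 called higher, 6 to 7 called lower and 1 called higher in the combination against DMSO, and 8 called lower with MI-503. Over all genes, leaving out 1 library gave 2852 to 4145 called higher and 3720 to 4209 called lower for MI-503 against DMSO. The replicate block left 5 of the 10 genes called higher and 2 called lower for the combination against MI-503 and changed no member's call there. Fitted only on same-numbered libraries, an alternative chosen after seeing the data, it lost the calls of HSBP1 (−0.18, adjusted p = 0.0600) and CPT2 (−0.17, adjusted p = 0.0789), and in the fit of all libraries it added HSPA6 (0.61, adjusted p = 0.0238), which 4 other alternatives also called. In the comparisons with DMSO, correlations of same-numbered libraries had both signs. There the replicate block gave HSPH1 a call in the combination (−0.25, adjusted p = 0.00581) and HSPA6 a call with MI-503 (0.67, adjusted p = 0.0213), which 9 other alternatives also called. Totals without scaling factors moved 1 of 30 mean levels by more than 1 SD (HSPA4 in the combination, 212 CPM). Depth limits genes at few counts, such as HSF1, HSPA1A, HSPA1B, HSPA6 and CLU.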
